A study of Camponotus fellah with 299 samples.

Results

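The ants described here are the 16 precocious mature workers among the 299 ants of the series: workers aged 14 months or less whose maturity label already stood at the mature end. They were chosen from labels alone. Oriented maturity is the deposited maturity label in colonies 2 and 3 and 1 minus that label in colony 4, where the deposited label runs the other way, and precocious ants have an oriented maturity above 0.7. They were compared with young nurses, ants of the same age range with an oriented maturity below 0.25. The precocious ants came unevenly from the colonies, 12 from colony 2, 1 from colony 3 and 3 from colony 4. The nurses numbered 37, 47 and 51 in these colonies, so that 151 young ants entered the comparison.

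Workers of many ants divide labour by age. Young workers stay inside the nest, tend the brood and attend the queen, and older workers move to guarding and foraging, a sequence called age polyethism. The sequence is flexible, and some workers leave brood care early while others keep nursing late in life. Such precocious and overage workers allow the role of a worker to be separated from its age.

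The species is Camponotus fellah, a carpenter ant, and each library is the mRNA of a single worker brain. The labels give no genotype, strain or treatment for any ant, and the groups were set by labelled age and maturity. Colonies were tracked for a week before the ants were killed. The title of the series relates social network position to behaviour and brain expression, and maturity was read here as that position, although the labels define neither maturity nor the nurse-forage ratio. For comparison, 79 older mature ants aged 15 to 46 months and 27 older nurses aged 15 to 38 months were held to the same limits on maturity. Between the limits lay 16 young and 16 older ants, and 10 ants carried no age or maturity label.

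Sequencing depth, as the sum of counts of a library, was 38.3 M in the median ant (M, 1e+06 reads) and between 19.8 and 73.2 M in all. Precocious ants had 22.4 to 47.5 M and young nurses 19.8 to 73.2 M. No pair of libraries stood out as a repeat: on the scale of log2 CPM (CPM, reads per M reads of the library) the closest pair of ants correlated at 0.987, and the median ant correlated at 0.981 with its nearest other ant. The lowest median correlation of an ant with the others was 0.942. Of 14664 gene models, 10941 passed the filter on low counts and were tested. The files do not pair their identifiers with gene names, so 2 gene models that rose and 2 that fell are named, and the brain label could not be checked against marker genes. The labels name no sequencing batch, and p-values here rest on variation among ants within these 3 colonies.

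The behaviour labels set the precocious ants apart from young nurses. The brood care tally of the precocious ants was 0 in 14 of 16 and 1 in the others, a mean of 0.125 ± 0.342 (SD, n = 16). In young nurses it ran from 0 to 60 with a mean of 13.5 ± 12.9 (SD over the nurses of the 3 colonies). Queen attending had a mean of 0.188 ± 0.403 (SD) in precocious ants and 6.82 ± 7.58 (SD) in nurses, and guarding 2.62 ± 4.49 (SD) and 0.378 ± 0.976 (SD). The guarding median was 0 in both groups, and 10 of 16 precocious ants had a guarding tally of 0. In colony 2, 5 of 12 precocious ants and 0 of 37 nurses guarded. In colony 4, 1 of 3 and 23 of 51 did, and in colony 3, 0 of 1 and 7 of 47. The nurse-forage ratio, read as rising with foraging, was above 0 in 11 precocious ants and 0 in the other 5. No young nurse was tallied sharing food or cleaning on the foraging side, against 6 and 5 of the 16 precocious ants.

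The nurse group was not uniform. Among the young nurses, 13 had a brood care tally of 0, 4 of which also had a queen attending tally of 0, and 12 had a ratio above 0. Near the upper limit of oriented maturity, the lowest precocious ants had 0.712 and 0.726 and the highest ants below the limit had 0.69 and 0.664. Near the lower limit, the highest nurses had 0.245 and 0.221 and the lowest ants above that limit 0.287 and 0.288.

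**Figure D1:**
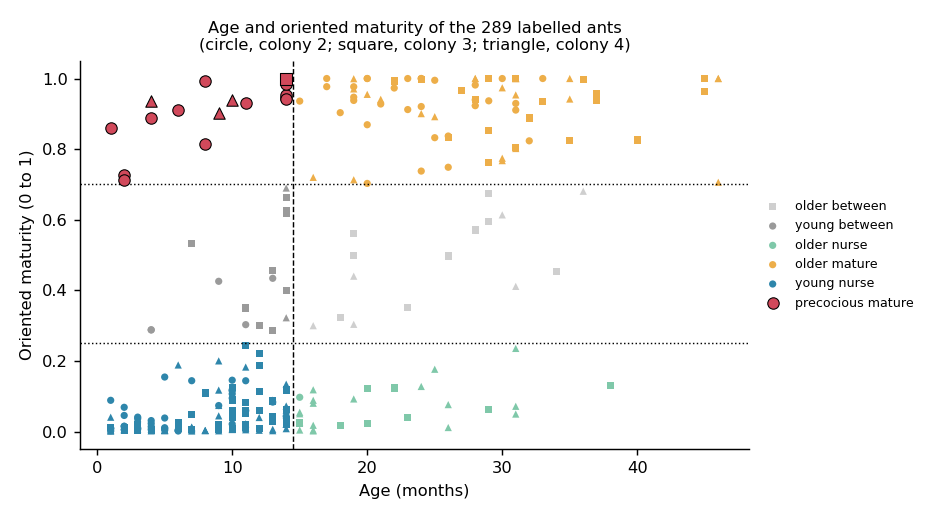
Age in months (horizontal) and oriented maturity from 0 to 1 (vertical) of the 289 ants with labels, with 1 point per ant. Dotted lines mark the limits of 0.7 and 0.25 and the dashed line the limit between young and older ants; the 16 precocious ants, outlined, range from 1 to 14 months of age and 5 of them are 14 months old.

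The precocious ants of colony 2 were smaller than its nurses and had a higher mean age. Over all colonies the mean age of precocious ants was 8.44 ± 4.82 months (SD, n = 16) against 7.77 ± 4.19 (SD) in nurses. Of the precocious ants, 5 were 4 months old or less. Within colony 2 the mean ages were 8.17 ± 5.17 months (SD, n = 12) and 5.68 ± 3.73 months (SD, n = 37). In colony 2, mean body length, whose unit the labels do not give, was 8.28 ± 0.465 (SD, n = 12) in precocious ants and 9.03 ± 0.713 (SD, n = 37) in nurses. That difference of -0.746 had a two-sided permutation p of 0.0005 (100000 resamples), and of 0.002 adjusted over 4 measures. Head width differed by -0.127 in colony 2 (adjusted permutation p = 0.0597), age by 2.49 months (0.116) and library total by -1.01 M (0.72). With all 3 colonies, each centred on its own mean, body length differed by -0.454 (adjusted permutation p = 0.0873) and age by 1.87 months (0.161).

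Brain expression differed between precocious ants and young nurses at equal age in 1175 gene models, which is 10.7% of the 10941 tested. Of these, 585 were higher and 590 lower in precocious ants (edgeR's quasi-likelihood test, adjusted p below 0.05, colony and age in the model). Most differences were small: the median absolute difference of the called gene models was 0.203 log2, with quartiles of 0.137 and 0.376. A difference above 1 log2 was found in 83, of which 56 rose and 27 fell. No gene model tested separated the groups without overlap. In 916 of the 1175 the median precocious ant lay outside the quartiles of the nurses. The 1175 were called on these same ants, which favours such a count, and the share over all gene models tested was not computed. The brain is a mixture of cell types, and in such bulk samples fewer cells of a type and less RNA per cell cannot be told apart.

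Body length moved with role in colony 2, and with body length added to the model 783 gene models were called. With runs of 10 consecutively numbered ants as blocks in place of colony the count was 679, and with 3 residual components added it was 2543. Without colony 2, which leaves 4 precocious ants, 93 were called, 58 higher and 35 lower. With each of the 16 precocious ants left out in turn, between 938 and 1370 gene models were called, and 661 of the 1175 were called with the same sign in all 16 of these fits. The lowest of these counts came without A125, an 8-month-old of colony 2, and the highest without B038, the sole precocious ant of colony 3.

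**Figure D2:**
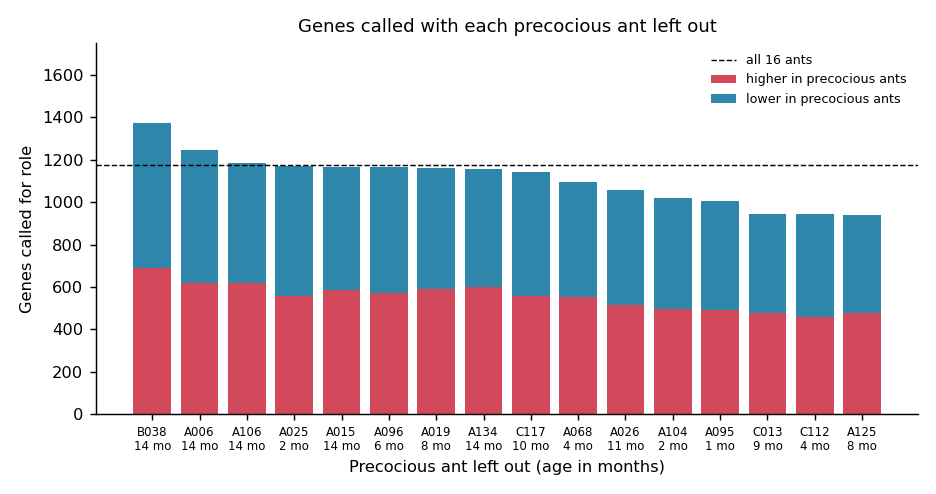
Number of gene models called for role (vertical, from 0) with each precocious ant left out in turn (horizontal, with its age in months), split into those higher and those lower in precocious ants. The dashed line is the count of 1175 with all 16 ants; the counts lie between 938 and 1370, and higher and lower calls are about equally many in each fit.

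Age had its own, smaller set of calls among these young ants. In the same model, 477 gene models changed with age at equal role, 4.36% of those tested, 268 rising and 209 falling. Their median absolute slope was 0.253 log2 per 12 months. The role and age terms were estimated from the same ants. With ants of 10 months or less, 1307 gene models were called for role, and for age 75 rose and 56 fell.

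Among the gene models that rose, evm.model.ctg116.35 came first by the rule for named genes. Its levels in the precocious ants of colony 2 were 14.8, 15.4, 16.1, 26.3, 29.3, 31.1, 37.2, 37.3, 42.5, 51.3, 77 and 88.5 CPM. The colony 3 ant had 21.9 CPM, and the colony 4 ants 16.8, 48.3 and 59.6 CPM. The nurses ran from 4.16 to 70.1 CPM with a median of 9.1 CPM. All 16 precocious ants lay above the median nurse and 2 lay above the highest nurse, while 5 nurses exceeded the precocious median of 34.2 CPM, so the groups overlapped. The precocious ants were higher by 1.73 ± 0.20 log2 (SE; edgeR adjusted p = 5.32e-12), and the level was also higher in older ones of these ants, with a slope of 0.74 ± 0.19 log2 for 12 months of age (SE; adjusted p from edgeR, 0.00714).

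Other groups of ants fell between young nurses and precocious ants in this gene model. Its median was 17.4 CPM in young ants between the limits, 16.1 CPM in older nurses and 24.6 CPM in older mature ants. In older ants the role difference was 0.62 ± 0.20 log2 (SE; edgeR adjusted p = 0.0498). The role difference was smaller in older than in young ants by 1.14 ± 0.27 log2 (SE), and this interaction had an edgeR adjusted p of 0.0322. The gene model was named for its large rise in young ants, which favours a smaller difference in older ants.

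The next gene model that rose was evm.model.ctg1.273. In precocious ants of colony 2 it ran from 48.8 CPM in A096 to 283 CPM in A019, with a median of 173 CPM. The ant of colony 3 had 81.4 CPM and those of colony 4 had 79.9, 176 and 223 CPM. Nurses spanned 6.61 to 291 CPM with a median of 41.6 CPM. The ranges overlapped widely: all 16 precocious ants exceeded the median nurse and none exceeded the highest nurse, and 7 nurses exceeded the precocious median of 173 CPM. The difference was 1.64 ± 0.27 log2 (SE; edgeR adjusted p = 2.38e-06).

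Age moved evm.model.ctg1.273 as well. Its nurse median was 26.2 CPM at 1 to 4 months, 35.1 CPM at 5 to 9 months and 71.2 CPM at 10 to 14 months, and its slope was 1.31 ± 0.26 log2 for 12 months of age (SE; adjusted p from edgeR, 0.000222). In older ants no role difference was called, with quartiles of 62.4 and 206 CPM in nurses and of 65.1 and 199 CPM in mature ants and a difference of 0.18 ± 0.25 log2 (SE; edgeR adjusted p = 0.817). The change of the role difference from young to older ants was -1.47 ± 0.36 log2 (SE; edgeR adjusted p = 0.0377). Here too the choice by a large rise in young ants favours a smaller difference in older ants.

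First by the rule among those that fell was evm.model.ctg53.29, and its reads came mainly from nurses. No read of it was counted in 11 of the 16 precocious ants. If reads were counted independently, this allows up to 3 counts, or 0.0644 to 0.134 CPM, by counting error in libraries of this depth. Its nonzero counts were even in 95.3%, so that limit may be too low. The others had 0.0642, 0.0645, 0.0938, 0.0939 and 0.285 CPM, which are 2 to 10 reads. In nurses it ran from 0 to 148 CPM with a median of 1.43 CPM, and 25 had no read. No precocious ant reached the median nurse, and 84 nurses lay above the highest precocious ant. The fitted difference was -7.76 ± 1.40 log2 (SE; edgeR adjusted p = 1.57e-05); with most precocious ants at 0 its size depends on the model and is no bound.

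Among nurses evm.model.ctg53.29 was highest in the youngest. Its median was 5.39 CPM at 1 to 4 months, 2.21 CPM at 5 to 9 months and 0.155 CPM at 10 to 14 months, and its slope on age was -2.30 ± 0.67 log2 for 12 months (SE; adjusted p from edgeR, 0.0238). The 5 precocious ants of 4 months or less had 0, 0, 0, 0 and 0.0645 CPM. In older ants the median was 0.0513 CPM in nurses and 0 in mature ants, and the role difference was -3.86 ± 0.82 log2 (SE; edgeR adjusted p = 0.00069).

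The next gene model that fell, evm.model.ctg36.20, had low levels in most ants. In the precocious ants of colony 2 it had 0, 0.0453, 0.0468, 0.0966, 0.0968, 0.191, 0.215, 0.445, 0.684, 0.704, 0.938 and 1.61 CPM. The ant of colony 3 had 0.118 CPM, and those of colony 4 had 0.155, 0.197 and 0.513 CPM. Nurses spanned 0 to 35.7 CPM with a median of 1.73 CPM. All precocious ants lay below the median nurse, the highest being the 2-month-old A025, and 70 nurses lay above the highest precocious ant. The difference was -3.63 ± 0.74 log2 (SE; edgeR adjusted p = 0.000162). The slope on age was -0.75 ± 0.46 log2 for 12 months (SE; adjusted p from edgeR, 0.495), and the role difference in older ants was -3.15 ± 0.49 log2 (SE; edgeR adjusted p = 1.66e-06).

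Both falling gene models had few reads in the precocious ants. With limma-voom neither was called: the difference of evm.model.ctg53.29 was -6.19 log2 (adjusted p = 0.0659) and that of evm.model.ctg36.20 was -2.96 log2 (adjusted p = 0.0509). With DESeq2 they were -7.40 and -3.64 log2 (DESeq2 adjusted p of 3.24e-14 and 3.66e-09). Low counts in the table were mostly even: 79.5% of counts from 1 to 19 were even, 95.3% of the nonzero counts of evm.model.ctg53.29 and 96.6% of those of evm.model.ctg36.20, against 54.9% of counts of at least 1000. With every count halved and rounded up, a step added after the data were seen, the differences were -7.73 and -3.62 log2. Without colony 2, the calls of evm.model.ctg53.29, evm.model.ctg36.20 and evm.model.ctg1.273 were lost (edgeR adjusted p of 0.366, 0.325 and 0.369), with differences of -6.38, -4.05 and 1.23 log2.

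**Figure D3:**
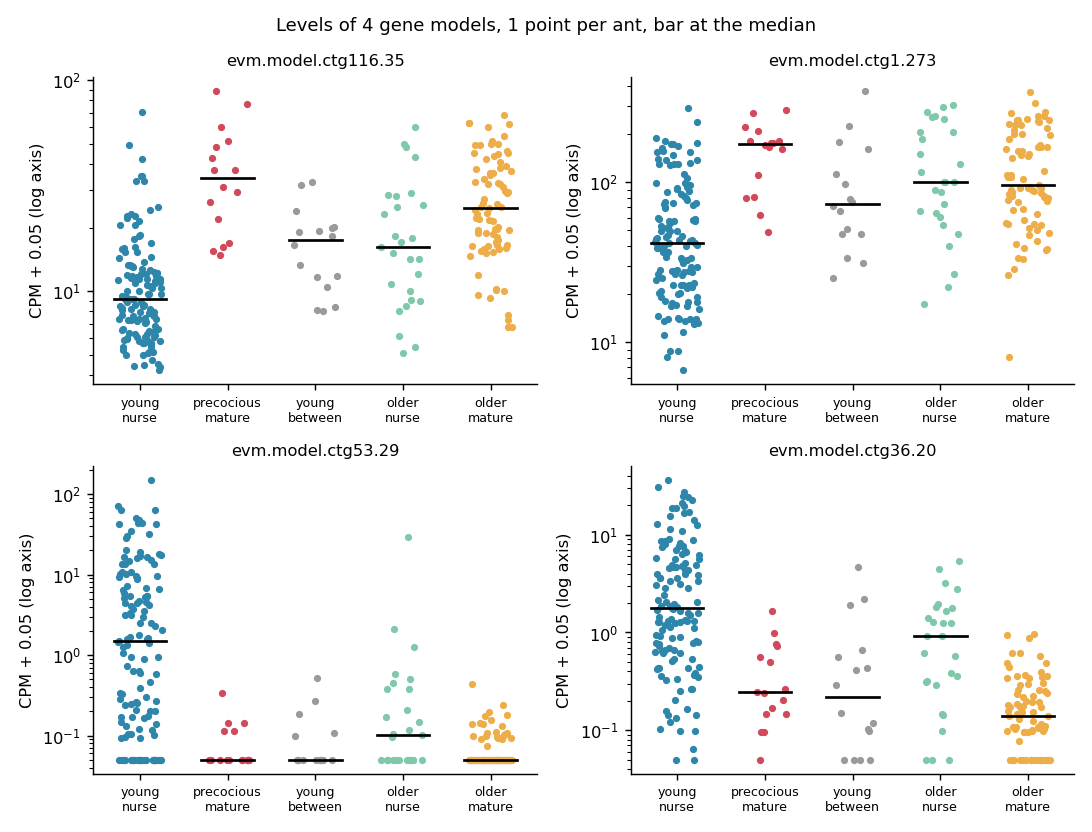
Level in CPM plus 0.05 on a log axis (vertical) of the 4 named gene models in young nurses, precocious mature ants, young ants between the limits, older nurses and older mature ants (horizontal), with 1 point per ant and a bar at the median. The upper gene models have precocious medians of 34.2 and 173 CPM over nurse medians of 9.1 and 41.6 CPM; in the lower ones all precocious ants lie below the nurse medians of 1.43 and 1.73 CPM, with precocious medians of 0 and 0.194 CPM.

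Colony 2, which holds most of the precocious ants, gave most of the calls. Fitted alone, it called 895 gene models, 8.18% of those tested, 444 higher and 451 lower in precocious ants. With body length in that model 452 were called. Colony 4, with 3 precocious ants and an own estimate of the spread, called 53 gene models, 0.484% of those tested, 38 higher and 15 lower, and between 13 and 19 without each of its precocious ants. With no filter on low counts, colony 4 called 88 higher and 18 lower.

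Directions were shared between these colonies, which have no ant in common. Both called 32 gene models, 3.58% of the calls of colony 2 and 60.4% of those of colony 4, and all 32 had the same sign, 20 higher and 12 lower. Of the 895 called in colony 2, 839 had the same sign in colony 4, or 93.7%, against 62.7% of all gene models tested. Of the 53 called in colony 4, 49 had the same sign in colony 2. The gene models that rose in colony 2 had a median difference of 0.249 log2 there and 0.193 log2 in colony 4, and those that fell -0.247 and -0.206 log2.

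A difference between the colonies was called in few gene models. The interaction of role and colony called 4, or 0.0366% of those tested, all with a higher role difference in colony 4, and 3 of the 4 were among the 1175. An unadjusted p below 0.05 was found for 391. The 4 had a median absolute interaction of 7.46 log2, an extreme size that rests on 3 precocious ants in colony 4. With limma-voom 1 gene model was called. None of the named gene models was among the 4. They were chosen for the same sign in colony 2 alone and colony 4 alone, so their shared direction is no independent support. The difference of evm.model.ctg116.35 was 1.93 ± 0.19 log2 in colony 2 and 1.59 ± 0.49 log2 in colony 4 (SE), and that of evm.model.ctg1.273 was 1.82 ± 0.29 and 1.51 ± 0.66 log2 (SE). Colony 4 alone called none of the 4 named gene models, with edgeR adjusted p from 0.174 to 0.433.

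The same contrast in ants older than 14 months called 660 gene models, 6.03% of those tested, 313 higher and 347 lower in mature ants. Colony 2 had 32 older mature ants but 1 older nurse, and without this colony 540 were called. Mean age was 27.8 ± 7.34 months (SD) in older mature ants and 21.1 ± 6.55 (SD) in older nurses. Young and older ants share no animal in these fits. In both, 350 gene models were called, all with the same sign, 158 higher and 192 lower. These are 29.8% of the calls in young ants and 53% of those in older ants. Of the 1175 called in young ants, 1068 had the same sign in older ants, or 90.9%, against 66.6% of all gene models tested.

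Sizes in the ants that did not choose the gene models were smaller. Gene models that rose in young ants had a median difference of 0.204 log2 there and 0.114 log2 in older ants, and those that fell -0.203 and -0.110 log2. Gene models that rose in older ants had 0.228 log2 there and 0.136 log2 in young ants, and those that fell -0.287 and -0.223 log2. Each pair is smaller on the side that was not used for the calls.

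**Figure D4:**
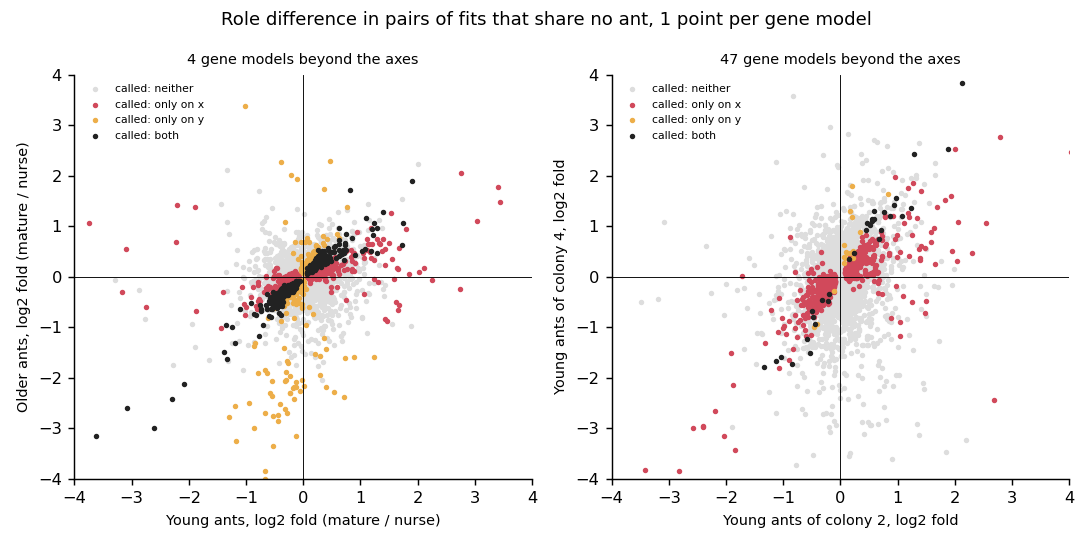
Role difference in log2 (mature over nurse) of each gene model in young (horizontal) against older ants (vertical), left, and in young ants of colony 2 against colony 4, right; colours mark calls in neither, 1 or both fits. The 350 and 32 gene models called in both fits, in black, lie in the quadrants of equal sign; 4 and 47 gene models lie beyond the axes.

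A change of the role difference with age class was called in few gene models, and those not called may still differ. The interaction called 21, or 0.192% of those tested, and 1238 had an unadjusted p below 0.05. Of the 21, 14 were called for role in young ants, 10 in older ants and 5 in both. The difference was larger in young ants in 15 and had opposite signs in 12. Without colony 2, which holds 12 of the 16 precocious ants and 1 older nurse, edgeR called 0 of them, with 368 at an unadjusted p below 0.05; with log2 library size added, 340 were called.

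Within the young ants, a change of the role difference with age in months was called in 6 gene models, 0.0548% of those tested. An unadjusted edgeR p below 0.05 was found for 2407, beside 2509 for role itself. A gene model that was not called is thus not shown to be free of such a change. Of the 6, 2 were called for role and 1 for age. With no filter on low counts 56 were called. None of the named gene models was among the 6, and the lowest edgeR adjusted p of these was 0.141, for evm.model.ctg1.273.

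Each ant was also placed on the role difference of older ants. The score of an ant is the mean, over the 660 gene models called in older ants, of its log2 CPM minus the mean of the young nurses of its colony, with the sign turned where older mature ants were lower. The scores of young ants use no gene model chosen on them. With 1 older nurse in colony 2, the gene models were chosen mainly on contrasts within colonies 3 and 4. Young nurses had a median of -0.0107 (from -0.394 to 0.5), precocious ants 0.376 (from -0.138 to 0.626) and older mature ants, on whom the gene models were chosen, 0.454 (from 0.171 to 0.755). Young ants between the limits had a median of 0.138 and older nurses 0.0370.

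The precocious ants were spread along this axis. Above the median young nurse of their colony lay 15 of 16, above the highest nurse 8, at or above the lowest older mature ant 11, and at or above the median older mature ant 5. With each gene model weighted by its difference in older ants, these counts were 11, 5, 11 and 3. At the top stood A096 at 0.626, A125 at 0.569, C117 at 0.526 and A095 at 0.517, and the last of these was 1 month old, the youngest precocious ant. At the bottom stood A025 at -0.138, aged 2 months and with the second lowest maturity of the group, then A068 at 0.0319 and A006 at 0.0330. Precocious ants of 1 to 4 months had a median of 0.277 (n = 5), those of 5 to 9 months one of 0.390 (n = 4) and those of 10 to 14 months one of 0.401 (n = 7), and their ranges overlapped.

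The score subtracts the mean of the young nurses of each colony, so that nurses centre on 0 by construction. Their medians were -0.0476 at 1 to 4 months, -0.0355 at 5 to 9 months and 0.0274 at 10 to 14 months. The means at these ages were -0.0626 ± 0.141, -0.00678 ± 0.148 and 0.0446 ± 0.164 (SD). Both rose with age within wide overlap, and this rise was not tested. The nurse with the highest score, C081 of colony 4 at 0.5, was 11 months old and had a brood care tally of 0 and a ratio of 0.0992. In all, 12 young nurses scored at or above the lowest older mature ant of their colony, and with the weights 50 did.

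**Figure D5:**
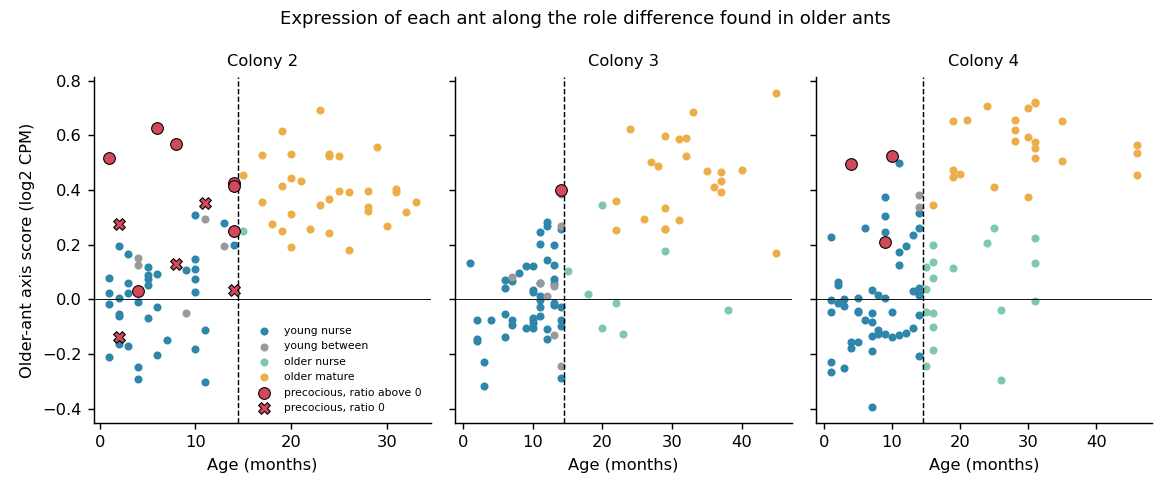
Older-ant axis score in log2 CPM (vertical) against age in months (horizontal) for the labelled ants of colonies 2, 3 and 4, with 1 point per ant, without the older ants between the limits. Outlined circles are precocious ants with a nurse-forage ratio above 0 and outlined crosses those with a ratio of 0; the crosses have a median of 0.128 and the circles one of 0.426, and the zero line is the mean young nurse of the colony.

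Precocious ants with and without foraging were compared with nurses in a shared model. The 11 foraging ants differed from young nurses in 1102 gene models, 10.1% of those tested, 509 higher and 593 lower. The 5 ants with a ratio of 0, all of colony 2, differed from nurses in 34 gene models, 0.311% of those tested, 32 higher and 2 lower, and limma-voom called 76, 70 higher and 6 lower. The groups differ in size, and the nurses are shared by both comparisons. Of these 5 ants, A006, A019 and A025 had nest cleaning tallies of 37, 15 and 14, and A026 had a guarding tally of 11.

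Tested directly, foraging and non-foraging precocious ants differed in 0 gene models, 0% of those tested, by edgeR and by limma-voom, with 1092 at an unadjusted edgeR p below 0.05. With the ratio as a number among the 16 precocious ants, 366 were called, 249 of them rising with the ratio, and in colony 2 alone 3 were called. The scores of the kinds overlapped, with 0.0319 to 0.626 in foraging ants and -0.138 to 0.352 in the others.

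The named gene models were chosen on all 16 precocious ants, so a shared direction in both kinds is no independent support, and their values are given as a description. For evm.model.ctg116.35 foraging ants had a median of 37.3 CPM and non-foraging ants 26.3 CPM, which are 1.83 ± 0.22 and 1.49 ± 0.32 log2 above nurses (SE; edgeR adjusted p of 5.73e-11 and 0.00694). In evm.model.ctg1.273 the medians were 172 and 208 CPM, and the differences 1.41 ± 0.30 and 2.09 ± 0.42 log2 (SE; edgeR adjusted p of 0.000408 and 0.00231). In evm.model.ctg36.20 the foraging median was 0.155 CPM and the non-foraging 0.704 CPM, with differences of -4.30 ± 0.93 and -2.77 ± 1.19 log2 (SE; edgeR adjusted p of 0.000475 and 0.316). In evm.model.ctg53.29, with no read in 9 of 11 foraging and 2 of 5 non-foraging ants, they were -7.93 ± 1.73 and -7.50 ± 2.36 log2 (SE; edgeR adjusted p of 0.000483 and 0.149). The direct difference between the kinds had an edgeR adjusted p from 0.593 to 0.961 in the 4 named gene models.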

How the data were processed

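Brain mRNA of single ants was sequenced from libraries made with a stranded kit, per the labels' protocols. The authors deposited raw counts, as whole numbers of reads for each gene model. STAR and featureCounts are named in the submitters' processing notes. Their versions, the genome build and annotation, and the strand option are not given in the sources used here, so overlapping or near-identical gene models may share reads.

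Groups came from labels; the groups, lists and tests were chosen with earlier results of these data known. Gene models passing edgeR's filterByExpr (minimum count 10, total 15) on the 6 labelled groups were tested with edgeR 4.0.16 (robust quasi-likelihood F-test, TMM, Benjamini-Hochberg over all gene models tested). Fits held only the groups compared. Standard errors were taken from the log2 difference and its F statistic; the prior count of log2 CPM was 1. Named gene models were those called with the same sign without each precocious ant, with that sign in colonies 2 and 4 alone and a median of at least 1 CPM in the higher group: 622, of which the 2 largest rises and falls are named. The gene lists and cell type markers of the plan could not be matched to identifiers. Simulated counts for the role comparison (10941 gene models) held changes in 67 gene models at 0.25 log2, 67 at 0.5 and 66 at 1. Of these, 56.7%, 79.1% and 89.4% were recovered, and 3.23% of 155 calls were false. The simulation thus changed far fewer gene models than the 1175 called in the data. Whether its recovery and share of false calls apply to the 1175 was not tested. Alternatives included DESeq2 1.42.0 and limma-voom (limma 3.58.1), other scalings, filters, covariates and limits, and each precocious ant or colony left out. R 4.3.3, Python 3.11.15, numpy 2.4.6 and scipy 1.17.1 were used.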

Additional observations from a re-analysis of the deposited data

Results flagged for a closer look

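The interaction of role in edgeR's quasi-likelihood test called 4 gene models with colony, 6 with age in months and 21 with age class. Among the named gene models, the role difference was smaller in older than in young ants for evm.model.ctg116.35 (edgeR adjusted p = 0.0322) and for evm.model.ctg1.273 (edgeR adjusted p = 0.0377). Both were named for their large rises in young ants, which favours such a change. Without colony 2 no gene model was called for the interaction with age class, so the calls with age class were not found there.

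Signal along the role difference of older ants was also seen in ants outside the comparison. Of the 10 ants with no age or maturity label, 4 scored above the highest young nurse of their colony: A024 at 0.512 and A070 at 0.377 in colony 2, where the highest nurse had 0.309, and B099 at 0.394 and B118 at 0.404 in colony 3, where it had 0.283. With each gene model weighted by its difference in older ants, 2 of the 4 remained above, B099 at 1.16 and B118 at 1.27 against 1.10, and A024 and A070, at 1.42 and 1.02, did not exceed the highest nurse at 1.42. Their age and role are not given, and they entered no comparison.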

How the results depend on the processing

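Of the 37 alternative settings for the role difference of the 4 named gene models, the 16 that leave out a precocious ant were part of the rule that chose them and say nothing of stability. In the other settings no direction changed. The rule also required the same sign in colony 2 alone and colony 4 alone. An unchanged direction without colony 2 or without colony 4 was thus favoured by the choice. With limma-voom evm.model.ctg53.29 and evm.model.ctg36.20 were not called. Without colony 2, which leaves 4 precocious ants, evm.model.ctg116.35 was called (1.43 log2), and evm.model.ctg1.273 (1.23), evm.model.ctg53.29 (-6.38) and evm.model.ctg36.20 (-4.05) were not, with edgeR adjusted p of 0.369, 0.366 and 0.325.

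Of 36 alternatives for role in young ants, 31 gave a count within 1.5 times 1175. Of these 31, 16 left out 1 precocious ant each, which bears only on dependence on single ants. As percentages of the gene models tested, the main call was 10.7%, and the others gave 7.16% with body length added, 6.21% with runs of 10 consecutively numbered ants as blocks in place of colony, 6.67% with limits of 0.9 and 0.1, 0.85% without colony 2 and 23.2% with 3 residual components added. DESeq2 called 1261 gene models and limma-voom 1208. Age in young ants, at 4.36%, moved to 11.4% with 3 residual components, 2.72% with limits of 0.9 and 0.1, 1.2% with ants of 10 months or less, 2.9% with nurses seen at brood care and never foraging, and 2.82%, 2.41% and 1.21% without colonies 2, 3 and 4. With body length added, 4.13% were called in colony 2 and 0.0274% for the interaction with age in months. Without a filter on low counts, colony 4 called 0.804% of the gene models with a read, and the interactions with colony, age in months and age class 0.14%, 0.408% and 0.962%. The calls of limma-voom were 0.00914% for the interaction with colony and 0.695% for non-foraging ants against nurses. Left-out precocious ants gave 8.57% to 12.5% for role, 3.98% to 4.84% for age, 5.64% to 9.05% in colony 2 and 0.119% to 0.174% in colony 4. Role in older ants was called in 12.6% with log2 library size added and 2.35% in ants over 20 months. The interaction with age class gave 3.11% with log2 library size and 0% without colony 2. Foraging against non-foraging ants gave 0.0274% in colony 2 and 3.35% with the ratio as a number. Body length differed by -0.454 over 3 colonies, and the median precocious score was 0.97 when weighted by the difference in older ants. The causes were not tested. No paired analysis was possible because each number names a single ant. In simulated counts 56.7% of changes of 0.25 log2 were recovered, so small differences may be missed.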

Other observations

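The 10 ants without an age or maturity label had older-ant axis scores from -0.178 to 0.512, with a median of 0.0736. Besides the 4 highest, A110 of colony 2 had 0.0165, C064 of colony 4 had 0.131, and B002, B065, B073 and B119 of colony 3 had -0.0529, -0.115, -0.153 and -0.178. Among young nurses, the highest scores after that of C081 were those of C004 at 0.374 and C123 at 0.314, also of colony 4. C123 was 14 months old with a brood care tally of 0, and C004 was 9 months old with a tally of 1.

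Young ants between the limits of maturity lay near the precocious ants in the gene models that fell. The median of evm.model.ctg36.20 was 0.169 CPM in them, 0.194 CPM in precocious ants and 1.73 CPM in young nurses, and evm.model.ctg53.29 had no read in 11 of these 16 ants. In evm.model.ctg116.35 and evm.model.ctg1.273 their medians, 17.4 and 73 CPM, lay between those of nurses and precocious ants. These levels were neither tested nor adjusted for age, and many of these ants were near the upper age limit. Young nurses of 10 to 14 months had medians of 11.4 CPM in evm.model.ctg116.35 and 71.2 CPM in evm.model.ctg1.273. Their medians were 0.155 CPM in evm.model.ctg53.29 and 1.1 CPM in evm.model.ctg36.20. Role and age are thus not separated in these levels.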
